A study of Homo sapiens with 80 samples.

Results

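The 10 epicardial genes WT1, TBX18, TCF21, BNC1, BNC2, LRRN4, ITLN1, MSLN, UPK1B and SEMA3D were followed through cardiomyocyte differentiation of human pluripotent stem cells. They were picked by name out of 43388 genes in the expression tables, after the contrast of purity classes in the multi-omic experiment had been seen. That contrast is therefore described below with no p. UPK3B, another gene of this kind, was left out because its symbol stands for several numbered entries. All 10 genes passed the filter on low values in both experiments.

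RNA was sequenced from 80 libraries of 2 experiments. Every differentiation was started with CHIR99021, a small molecule that activates WNT signalling, and later received IWP2, which blocks WNT secretion, on day 2 in WTC11 and on day 3 in H9 and IMR90-4, in B27-supplemented medium that lacked insulin at first and held it later. A differentiation was called high or low purity from the share of cells with cardiac troponin T in flow cytometry on day 16. The multi-omic experiment followed the induced pluripotent line WTC11 by poly(A) sequencing at 8 times, with even-numbered days up to 10 and later days 13 and 16. Its 25 high purity libraries were wells of 1 differentiation at passage 52 and its 31 low purity libraries were wells of 1 differentiation at passage 69, with 4 wells a class up to day 6, 3 high and 4 low on day 8, 1 and 4 on day 10, 2 and 4 on day 13, and 3 and 3 on day 16. In that experiment the purity class, the passage and the differentiation cannot be told apart, and every error given for that experiment is the spread between wells of a single differentiation. The RNA-only experiment held 24 total RNA libraries with no repeat wells. Its 6 differentiations were H9 (an embryonic stem cell line) at passage 55 (low) and 58 (high), IMR90-4 (an induced pluripotent line) at passage 55 (high) and 75 (low), and WTC11 at passage 69 (low) and 81 (high), each sampled at 4 stages. These were days 0, 2, 4 and 6 in WTC11 and days 0, 3, 5 and 7 in the other lines. Libraries held 6579715 to 18143597 reads in the multi-omic experiment and 17990882 to 40357968 in the RNA-only experiment. Levels are given in TPM, transcript abundance scaled for gene length and library total, and both tables were normalised separately. The count and TPM tables of the multi-omic experiment name their columns differently, and every multi-omic group value below rests on the names in the TPM table.

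The epicardium is the mesothelial sheet that covers the heart. It forms from the proepicardium, a cluster of cells near the inflow tract that shares early mesodermal factors with the heart muscle lineage, and some of its cells leave the sheet by an epithelial-to-mesenchymal transition and become fibroblasts and mural cells of the coronary vessels. WT1, TBX18 and TCF21 are the transcription factors most often used to mark it, and retinoic acid made by ALDH1A2 is typical of it. In cultures of pluripotent stem cells, WNT activation in cardiac progenitors is a known route to epicardial cells. In bulk RNA, fewer cells of a type and less RNA per cell cannot be told apart.

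WT1 is a zinc finger factor on chromosome 11, TBX18 a T-box factor and TCF21 a basic helix-loop-helix factor, both on chromosome 6, and BNC1 and BNC2 are the paired basonuclin zinc finger factors on chromosomes 15 and 9. The stretches of reference sequence below lie before the start sites of the 4 factors whose rise in low purity wells was called on day 4 and of ITLN1, the gene with the latest large rise. They are shown because the factors changed together while ITLN1 did not follow their time course. Each is 150 bases, from 250 to 101 bases before the RefSeq start on GRCh38.p14, read 5′ to 3′ on the strand of the gene, and capitals mark every match on either strand to 1 of 6 motifs. These are the GC box (GGGCGG), the CCAAT box (named by its letters), the motif of TEAD factors (GGAATG), the motif of GATA factors (AGATAA), an E-box of basic helix-loop-helix factors (CAGCTG) and the motif of T-box factors (TCACACCT). The windows are chr11:32435640-32435789 on the minus strand, chr6:84764699-84764848 on the minus strand, chr6:133888863-133889012 on the plus strand, chr15:83284765-83284914 on the minus strand and chr1:160885281-160885430 on the minus strand, in the order printed.
WT1: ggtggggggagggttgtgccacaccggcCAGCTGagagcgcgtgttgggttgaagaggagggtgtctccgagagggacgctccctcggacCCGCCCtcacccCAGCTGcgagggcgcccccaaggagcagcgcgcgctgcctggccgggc
TBX18: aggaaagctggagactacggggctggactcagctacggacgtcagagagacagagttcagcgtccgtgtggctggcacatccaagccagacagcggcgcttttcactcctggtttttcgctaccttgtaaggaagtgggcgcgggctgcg
TCF21: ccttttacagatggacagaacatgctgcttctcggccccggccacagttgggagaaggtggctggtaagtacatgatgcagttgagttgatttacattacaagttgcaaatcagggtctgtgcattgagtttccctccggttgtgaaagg
BNC1: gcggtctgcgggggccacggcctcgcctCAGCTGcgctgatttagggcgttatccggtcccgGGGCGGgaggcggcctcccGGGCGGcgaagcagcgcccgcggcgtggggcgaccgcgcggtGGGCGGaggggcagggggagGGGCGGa
ITLN1: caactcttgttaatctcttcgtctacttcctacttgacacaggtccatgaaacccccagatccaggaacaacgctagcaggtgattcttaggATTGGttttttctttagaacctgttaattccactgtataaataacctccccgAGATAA

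The BNC1 and WT1 windows were rich in G and C, at 80.0% and 73.3%, against a median of 56% over the 35116 windows of all genes in the same place. BNC1 held 4 GC boxes and 1 E-box, and WT1 held 1 GC box and 2 E-boxes. ITLN1, at 41.3% G and C, had instead 1 CCAAT box and 1 GATA motif, and the windows of TBX18 (59.3%) and TCF21 (48.7%) held none of the 6 motifs. Of all windows, 25.8% held a GC box, 18.9% a CCAAT box, 7.5% the TEAD motif, 6.0% the GATA motif, 8.5% the E-box and 0.5% the T-box motif. No 2 matches overlapped in the windows shown. These matches describe the letters and say nothing of binding.

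WT1, TBX18, TCF21 and BNC1 came on by day 4 and BNC2 by day 6 in the low purity WTC11 differentiation. Each of these 5 transcription factors had a lower mean on day 16 than at its highest. WT1 was at 0 reads in all 8 wells of day 0. On day 4 the low purity wells had 1.95, 1.48, 1.30 and 1.51 TPM of WT1 and on day 6 they had 41.4, 24.7, 29.97 and 52.3 TPM. No high purity well passed 0.48 TPM up to day 8. WT1 in low purity wells then averaged 79.8 ± 6.4 TPM (SD, n = 4) on day 8. The means of days 10 and 13 were 103.4 ± 8.0 and 105.8 ± 9.1 TPM (n = 4 each), and that of the last day was 79.2 ± 17.5 TPM (n = 3). Days 10 and 13 overlapped, and the wells of day 16 overlapped those of days 8, 10 and 13. The rise from day 0 to day 16 was at least 269-fold, counting day 0 at a floor of 3 reads per library, and 6.40 ± 0.14 (SE) on the log2(TPM + 1) scale (limma adjusted p = 9.9e-36). The late low purity levels were known when the genes were picked, so such a p-value supports nothing by itself. High purity wells had 1.30 TPM in the single well of day 10, 2.69 and 2.70 TPM on day 13 and 1.30, 0.964 and 1.01 TPM on day 16, so WT1 rose there too, by 1.23 ± 0.14 (adjusted p = 9.1e-11). The low purity mean of day 16 was 72.7 times the high purity mean. On every day from 4 to 16 all low purity wells lay above all high purity wells.

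TBX18 had a course like that of WT1 in low purity wells and also rose late in high purity wells. The low purity wells had 3.23, 2.87, 3.80 and 2.996 TPM on day 4, and their mean went from 40.9 ± 10.95 TPM on day 6 to 154 ± 14 on day 8 and 183 ± 16 on day 10, n = 4 each, the highest of the course. Day 13, at 158 ± 19 TPM, overlapped both, and these 2 overlapped each other. By day 16 it was 125 ± 21 TPM (n = 3), below all wells of day 10. In the high purity differentiation TBX18 was 1.80 ± 0.53 TPM on day 6 (n = 4) and 2.30 ± 0.53 on day 8 (n = 3), and then 10.0 and 12.5 TPM on day 13 and 6.98, 8.61 and 8.86 TPM on day 16. The 3 wells of day 16 were all above the 3 of day 8, and TBX18 rose between these days by 1.69 ± 0.14 on the log2(TPM + 1) scale (adjusted p = 1.2e-13). In low purity wells the same interval gave -0.08 ± 0.13 (adjusted p = 0.70), which is within the spread of the wells.

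TCF21 differed from the other factors in that its wells overlapped between the classes on day 4 and parted by day 6. On day 4 it was 4.91, 3.73, 4.28 and 6.42 TPM in the high purity wells and 3.20, 3.52, 4.26 and 4.23 TPM in the low purity wells, which overlapped. No well of day 2 had a read of it. By day 6 it had gone down to 0.394 to 1.42 TPM in the high purity wells and up to 5.83 to 10.98 TPM in the low purity wells. It stayed at 0.562 TPM or less in high purity wells from day 8 on, and in low purity wells averaged 14.1 ± 3.0, 14.98 ± 2.61 and 12.5 ± 0.9 TPM on days 8, 10 and 13 (n = 4 each) and 8.58 ± 1.04 TPM at the end (n = 3). The first 3 of these overlapped, and all wells of day 16 lay below all wells of the 3 days before. From day 0 to day 16 it rose by 3.31 ± 0.16 in low purity wells (adjusted p = 2.0e-22), and its difference of 0.34 ± 0.16 in high purity wells did not pass (adjusted p = 0.067), whereas edgeR on reads recovered from TPM called a rise there (2.98, adjusted p = 0.0023). DESeq2 on these reads (3.39, adjusted p = 0.0029) and limma with 0.1 TPM added in place of 1 (1.51, adjusted p = 3.9e-05) called it too. High purity wells had 0 to 1 read of TCF21 on day 0 and 2 to 8 reads on day 16.

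BNC1 was the most abundant of the 10 genes in low purity wells from day 6 on, per length. It had 0.831 ± 0.272 TPM on day 0 in low purity wells (n = 4) and already 44.2 to 46.4 TPM in the 4 low purity wells of day 4, against 3.62 to 5.43 TPM in the high purity wells. The low purity means of days 6, 8, 10, 13 and 16 were 138 ± 32, 184 ± 24, 276 ± 22, 305 ± 27 and 218 ± 37 TPM in turn, and the wells overlapped between days 6 and 8, 10 and 13, 8 and 16, and 10 and 16. In high purity wells BNC1 went from 11.3 ± 1.7 TPM on day 6 (n = 4) to 4.71 ± 0.79 on day 8 (n = 3), was 24.5 and 29.8 TPM on day 13, and ended at 10.2 ± 0.9 TPM on day 16 (n = 3). It thus rose from day 0 in both, by 6.92 ± 0.13 in low and 3.16 ± 0.13 in high purity wells (adjusted p = 8.8e-38 and 3.8e-25).

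BNC2 was present in stem cells, was low on day 2 and came back in the low purity wells. The stem cells of day 0 had 6.74 ± 0.23 TPM in low and 6.78 ± 0.19 TPM in high purity wells (n = 4 each). Day 2 had 0.592 ± 0.158 and 1.15 ± 0.27 TPM, a fall by 2.42 ± 0.13 and by 1.91 ± 0.13 on the log2(TPM + 1) scale (adjusted p = 4.3e-20 and 1.5e-16). All low purity wells of day 2 lay below all high purity wells of that day. The low purity wells then had 10.8 to 13.0 TPM on day 4 and 35.5 to 69.1 TPM on day 6, and 32.4, 21.1 and 23.2 TPM on day 16. All wells of day 16 lay below all wells of day 6, with means of 25.6 ± 6.0 TPM (n = 3) and 47.4 ± 14.8 TPM (n = 4). The high purity wells stayed between 0.277 and 1.69 TPM from day 4 to day 16. From day 0 to day 16 BNC2 rose by 1.72 ± 0.15 in low purity wells and fell by 2.18 ± 0.15 in high purity wells (adjusted p = 2.7e-14 and 9.3e-18), and the difference between these 2 changes was not tested.

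**Figure D1:**
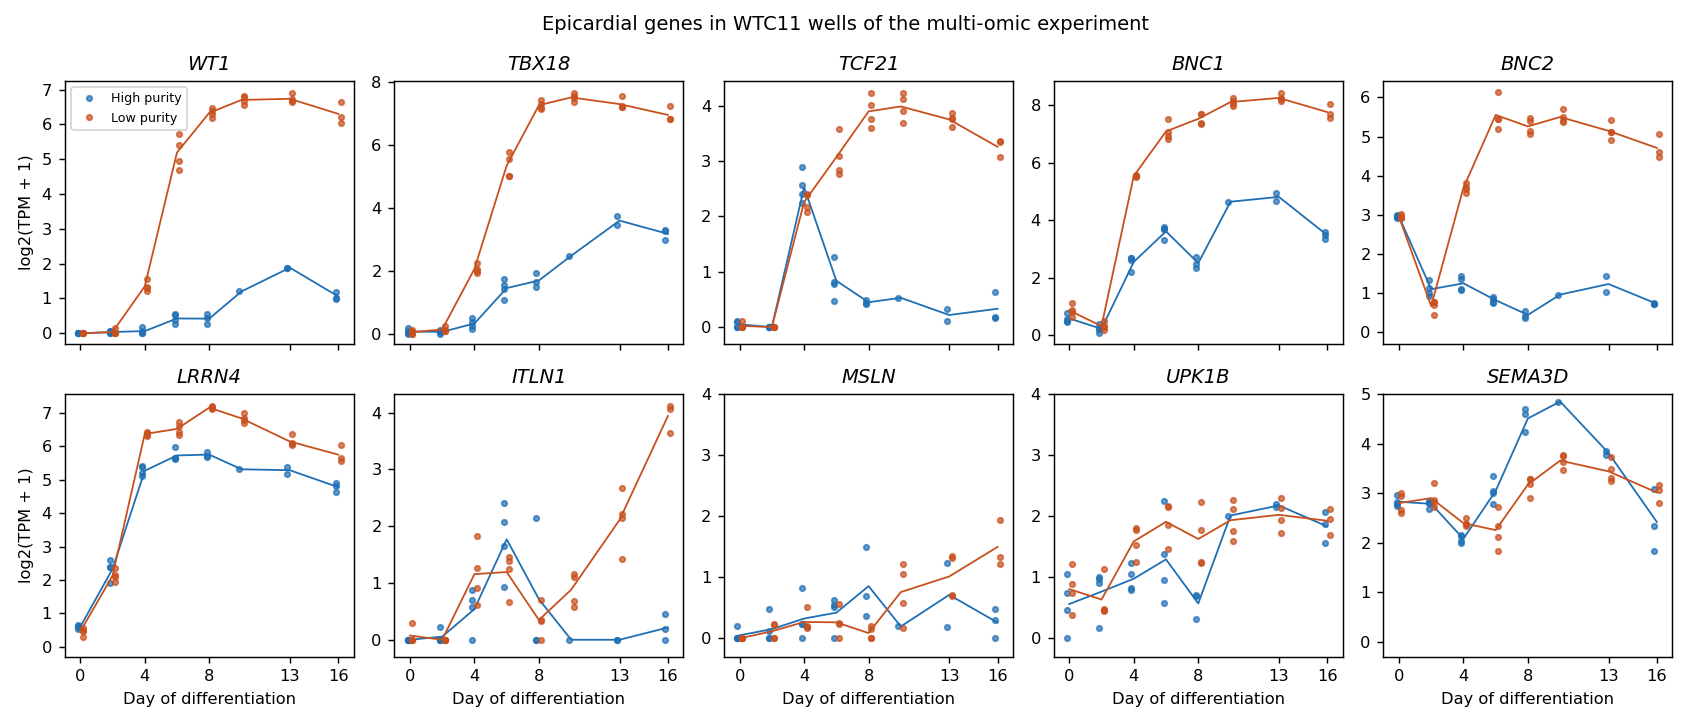
TPM as deposited, on a log2(TPM + 1) axis, against the day of differentiation for each of the 10 genes in the multi-omic experiment, with 1 point a well and lines through the group means (blue high purity, orange low purity). In the upper row the low purity wells of WT1, TBX18, BNC1 and BNC2 lie above from day 4 and those of TCF21 from day 6. On day 2 those of BNC2 lie below. LRRN4 rises in both classes, and ITLN1 reaches 11.4 to 16.4 TPM only in the low purity wells of day 16.

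LRRN4, a leucine-rich repeat membrane protein used as a mesothelial marker, was the earliest of the 10 genes and came on in both differentiations. It went from 0.371 ± 0.108 TPM on day 0 to 3.39 ± 0.54 TPM on day 2 in low purity wells and from 0.513 ± 0.053 to 4.09 ± 0.94 TPM in high purity wells. On day 4 the classes no longer overlapped, at 78.7 to 84.3 TPM in low and 33.5 to 41.1 TPM in high purity wells. The low purity wells stood highest on day 8, at 142 ± 5 TPM (n = 4), and had 53.4 ± 10.0 TPM on day 16 (n = 3), a fall by 1.18 ± 0.12 between these days (adjusted p = 3.6e-11). High purity wells had 52.9 ± 3.1 TPM on day 8 and 26.5 ± 2.7 on day 16 (n = 3 each), and here the log2 difference of -0.77 ± 0.13 was short of the threshold of 1 (adjusted p = 2.3e-06).

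ITLN1, the secreted lectin omentin, made its large rise late, after a small early appearance in both differentiations. In low purity wells it was 1.35 ± 0.89 TPM on day 4 and 1.34 ± 0.52 TPM on day 6 (n = 4 each), from 2 to 10 reads a well on day 4. It then stood at 0.292 ± 0.258 TPM on day 8, at 3.63, 1.66, 5.38 and 3.42 TPM on day 13 and at 15.7, 16.4 and 11.4 TPM on day 16. It rose between days 8 and 16 by 3.71 ± 0.32 (adjusted p = 8.3e-13), while WT1 gave 0.19 ± 0.14 over the same interval (adjusted p = 0.32). High purity wells had 0.915 to 4.34 TPM of ITLN1 on day 6, then 3.41 TPM in 1 well and 0 reads in the other two on day 8, and 0 reads in all wells of days 10 and 13. A level of 0 reads there allowed up to 0.765 TPM on average over the 2 wells of day 13, at 3 reads a library and for counting error only.

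MSLN, the mesothelial surface protein mesothelin, was near the limit of detection. It reached 2.84, 1.31 and 1.53 TPM (11 to 32 reads) in the low purity wells of day 16, up from 0 reads in all 4 wells of day 0 and from 0.148 TPM or less on day 8, and rose between days 8 and 16 by 1.48 ± 0.23 (adjusted p = 1.4e-06). On day 8 the order was the other way, with 0.289, 0.626 and 1.83 TPM (3 to 16 reads) in the high purity wells, all above the low purity wells with at most 1 read. UPK1B, a uroplakin of the urothelial and mesothelial surface, was low throughout and did not separate the classes at the end: 2.24, 2.88 and 3.36 TPM in low and 1.95, 2.66 and 3.19 TPM in high purity wells of day 16, with 18 to 38 reads a well. It rose from day 0 in both, by 1.12 ± 0.27 and 1.48 ± 0.27 (adjusted p = 3.1e-04 and 5.4e-06), and the rise in low purity wells was 0.97 without well 4 of day 0, under the threshold of 1.

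SEMA3D, a secreted semaphorin that guides axons and vessels, had its highest levels in the high purity wells. It was higher in high purity wells on day 8, at 25.0, 23.2 and 17.8 TPM against 6.54 to 8.83 TPM in low purity wells, and rose there from day 0 by 1.70 ± 0.16 (adjusted p = 2.0e-12). The high purity well of day 10 had 27.9 TPM and the low purity wells 10.1 to 12.7 TPM. It then fell in high purity wells by 1.93 ± 0.18 to day 16 (adjusted p = 1.5e-12), where 2.57, 7.51 and 4.05 TPM overlapped the low purity values of 7.36, 8.03 and 6.01 TPM. In low purity wells SEMA3D passed on no day, with 0.16 ± 0.16 on day 16 (adjusted p = 0.40).

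Between day 0 and day 16, 9 of the 10 genes rose in low purity wells and none fell, with SEMA3D the one not called, where 19.5% of the 25664 genes tested rose. In high purity wells 5 rose (WT1, TBX18, BNC1, LRRN4 and UPK1B) and BNC2 fell, where 19.4% of all genes rose and 16% fell. The median change of the 10 genes was 3.63 in low and 0.79 in high purity wells on the log2(TPM + 1) scale, against 0.09 and 0.05 over all genes. WT1 and MSLN in low and WT1 in high purity wells had no read on day 0, and with these set at their bound the medians were 3.63 and 0.91. The bound is the log2 fold in TPM over the floor of 3 reads, a scale unlike the log2(TPM + 1) of the other genes. ITLN1 also had no read on day 0 in high purity wells but kept its value. Its day 16 mean there, 0.171 TPM, was under its floor of 0.561 TPM. From day 8 to day 16, 3 of 10 changed in low purity wells (ITLN1 and MSLN rose, LRRN4 fell) where 6.4% of all genes changed, and 4 of 10 in high purity wells (TBX18, BNC1 and UPK1B rose, SEMA3D fell) where 11.4% did. With no scaling BNC1 was 0.97 in this last comparison, under the threshold of 1, and edgeR on recovered reads also called rises of WT1 (1.94, adjusted p = 3.5e-04) and BNC2 (1.11, adjusted p = 0.0010). The late levels of the low purity wells were known when the genes were picked. The low purity counts, and the p-values given gene by gene for low purity wells of day 16, therefore support nothing by themselves.

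The first day with a mean of at least 1 TPM and a called rise from day 0 gives the order in which the genes came on. In low purity wells this was day 2 for LRRN4, day 4 for WT1, TBX18, TCF21, BNC1 and ITLN1, day 6 for BNC2, day 13 for UPK1B and day 16 for MSLN. In high purity wells it was day 2 for LRRN4, day 4 for TCF21 and BNC1, day 6 for TBX18 and ITLN1, day 8 for SEMA3D and day 13 for WT1 and UPK1B. By the same rule for a rise, 11%, 12.8%, 15.9%, 20.4% and 19.5% of all genes rose by days 2, 4, 6, 13 and 16 in low purity wells, and 9.66%, 10.8%, 13.2%, 14.1% and 19% by days 2, 4, 6, 8 and 13 in high purity wells. BNC2 and MSLN had no such day in high purity wells and SEMA3D had none in low purity wells. A bar of 5 TPM in place of 1 TPM moved several of these. In low purity wells WT1, TBX18 and TCF21 moved to day 6, LRRN4 to day 4 and ITLN1 to day 16, MSLN and UPK1B had no such day, and BNC1 and BNC2 did not move. In high purity wells BNC1 moved to day 6, LRRN4 to day 4 and TBX18 to day 13, SEMA3D did not move, and WT1, TCF21, ITLN1 and UPK1B had no such day.

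The difference between the classes, through which the genes were picked, is given for each day by its size alone, with no p, and nothing is read from the counts. On days 0 and 2 it was under 1 in size on the log2(TPM + 1) scale for all 10 genes, where 2.42% and 6.69% of all genes reached 1. On day 4, 5 genes were lower in high purity wells by at least 1, namely BNC1 (-2.97 ± 0.12), BNC2 (-2.41 ± 0.13), TBX18 (-1.69 ± 0.12), WT1 (-1.25 ± 0.13) and LRRN4 (-1.09 ± 0.11), with 4.99% of all genes lower by as much. On day 6 these were the 5 transcription factors, with 6.2% of all genes, and on day 8 the factors and LRRN4, with 8.92%, while SEMA3D was higher (1.55 ± 0.16), as were 5.16% of all genes. The 5 factors and ITLN1 were lower on day 13, where 7.63% of all genes were, and on day 16 MSLN was added (-1.23 ± 0.25), with 8.87% of all genes. The largest difference was that of WT1 on day 8, at -5.76 ± 0.14, and it was -5.16 ± 0.15 on day 16. TBX18 and BNC1 came closest together again between days 8 and 13, from -5.36 ± 0.13 to -3.52 ± 0.15 and from -4.81 ± 0.13 to -3.26 ± 0.15. For 8 of the 10 genes every low purity well of day 16 lay above every high purity well, as was so for 32.1% of all genes.

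**Figure D2:**
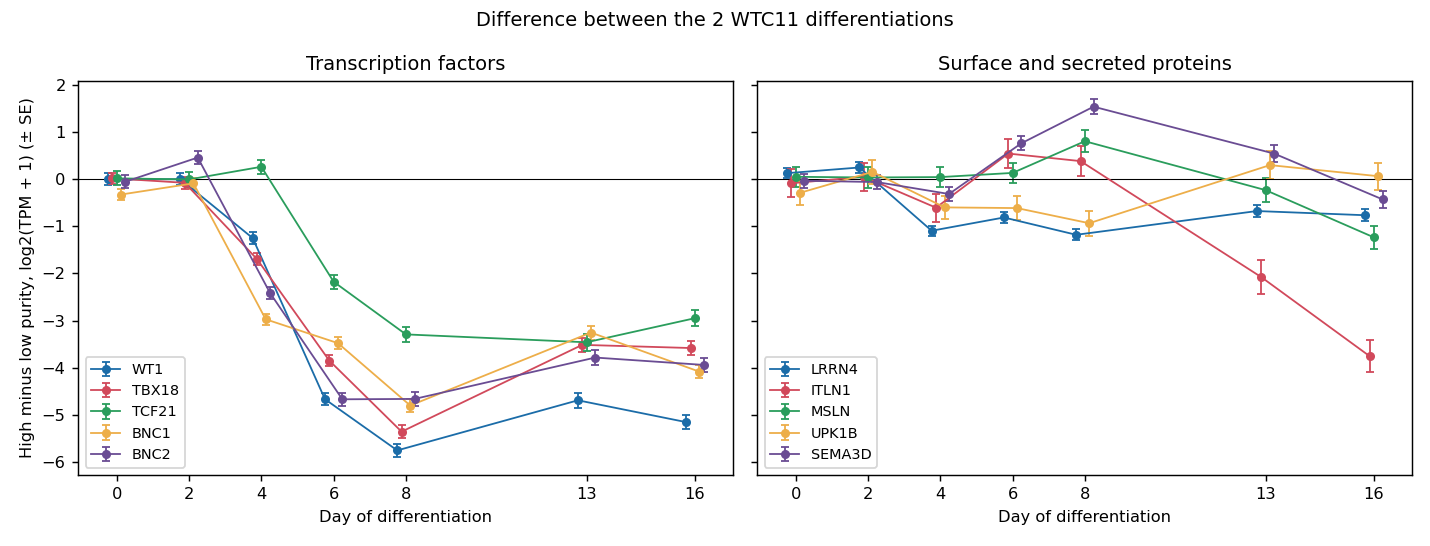
High minus low purity on the log2(TPM + 1) scale by day in the multi-omic experiment, from the limma fit, with bars of 1 SE and the transcription factors on the left (day 10 has 1 high purity well and is left out). All values of days 0 and 2 are smaller than 1 in size, the factors reach -3.30 to -5.76 on day 8, and ITLN1 lies between -0.60 and 0.55 up to day 8 and at -2.08 and -3.76 on days 13 and 16.

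Over the 16 groups of the multi-omic experiment the 5 transcription factors had similar profiles. The 10 pairs among them had a Pearson r of 0.73 to 0.97 with a median of 0.85, and the closest pair was WT1 and TBX18. The other 35 pairs ran from -0.25 to 0.83 with a median of 0.46, and SEMA3D had the lowest values. These coefficients are over group means on a log2(TPM + 1) scale and share the 2 differentiations and the time course, so they carry no p. Of genes outside the 10, those most like their mean profile were SNCAIP, LAMA5, IGF2, NOL4L, COL3A1, CRIM1, CEBPD, MPP5, MYRF and ADAM9, with r from 0.97 (ADAM9) to 0.98 (SNCAIP). The 5 most like WT1 alone were ALX4 (r = 0.99), DCN (0.99) and 3 loci with no gene name, at 0.98 to 0.99.

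**Figure D3:**
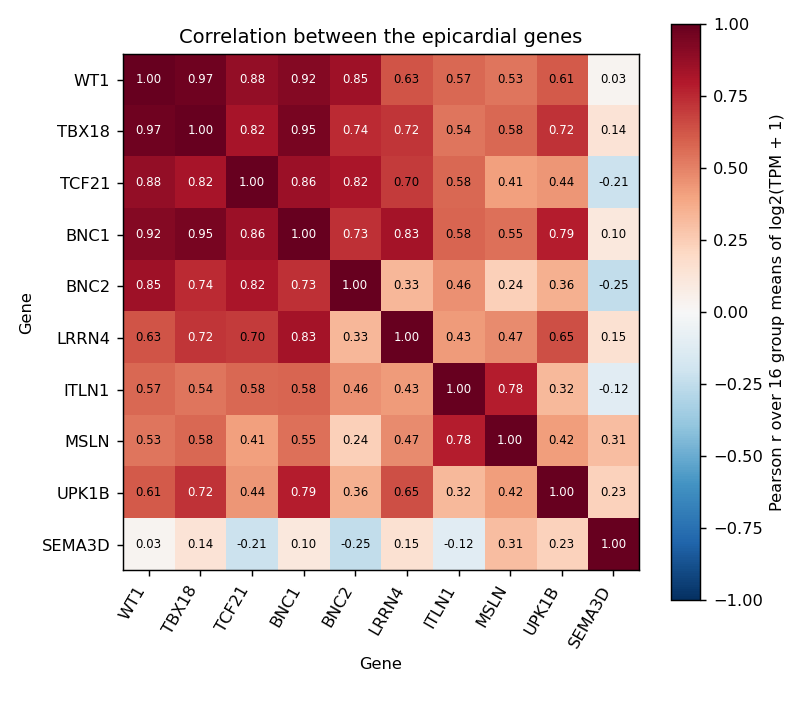
Pearson correlation between the 10 genes over the 16 group means of the multi-omic experiment, printed in each square. The block of WT1, TBX18, TCF21, BNC1 and BNC2 lies between 0.73 and 0.97, and SEMA3D is between -0.25 and 0.31 with every other gene.

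Wells of the low purity differentiation also differed among themselves, and WT1, TBX18, TCF21, BNC1, BNC2 and LRRN4 often had their highest level in the same well. On day 6, well 4 had the highest level of all 6, and well 2 had the lowest of 5 of them and the highest of 3 of the other 4 genes. These wells were singled out after their values were seen. On no day was it counted how many of all genes were highest or lowest in the same wells. The shared order is therefore not read as particular to these genes. Well 4 had 481 TPM summed over the 10 genes, where the other 3 had 300.3 to 376, and it had 1220 TPM summed over 7 cardiomyocyte markers where the others had 2234 to 2587. On day 16, well 1 had the highest level of 5 of these 6 genes, a sum of 643 TPM against 477 and 488, and a cardiomyocyte sum of 2167 TPM against 3383 and 3613. On each of the 5 days from 6 to 16 the low purity well with the highest sum of the 10 genes was the one with the lowest cardiomyocyte sum, and on none of the other 3 days. On day 8 wells 1 and 4 had nearly equal sums (668.0 and 668.3 TPM). In high purity wells this was so on 0 of the 6 days with at least 3 wells. TPM values of a library share 1 total, and how far this bears on the result was not tested.

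Among the RNA-only libraries WT1, TBX18, BNC1 and BNC2 were high together in 1 of the 3 low purity differentiations, that of H9 at passage 55. WT1 there went from 0.0298 TPM on day 0 and 0 reads on day 3 to 16.8 TPM on day 5 and 39.5 TPM on day 7 (95% exact Poisson interval 37.9 to 41.1, counting error only). The other 5 differentiations had 0.159 to 0.542 TPM of WT1 at the last stage. The highest of these was low purity WTC11 at passage 69 with 0.542 TPM (0.401 to 0.716), above its high purity partner with 0.183 TPM (0.103 to 0.302). TBX18 was also highest in low purity H9, with 17.7 TPM (17.1 to 18.4) in low purity H9, 0.944 (0.822 to 1.08) in low purity WTC11, 0.825 (0.689 to 0.980) in high purity H9, 0.233 (0.172 to 0.309) in high purity WTC11, and 0.0296 and 0.0340 in IMR90-4. The intervals of low purity WTC11 and high purity H9 overlapped.

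H9 low purity stood apart before WT1 came on. On day 3 it had 9.04 TPM of BNC1, 6.06 of BNC2, 5.26 of TCF21 and 8.43 of LRRN4, whereas the other 5 differentiations had at most 1.11, 0.617, 0.427 and 1.61 TPM at that stage. BNC2, which in the other 5 went from 1.64 to 2.64 TPM on day 0 to at most 0.483 TPM at the last stage, was 2.73, 6.06, 11.05 and 9.99 TPM over the 4 stages here. BNC1 ended at 85.8 TPM in low purity H9, 11.7 in high purity H9 and 2.46 to 4.33 in the other 4. TCF21 was 6.14 and 3.61 TPM in low and high purity H9 on day 7, and it peaked in high purity IMR90-4 on day 5 at 7.47 TPM and had 0.785 TPM there on day 7. The 10 genes summed to 188.6 TPM in low purity H9 at the last stage, 36.5 in high purity H9 and 15.97 to 27.1 in the other 4. Retinoic acid genes, described below, summed then to 254.7 TPM in low and 526.7 TPM in high purity H9. The other 4 had 301.3 to 474.1 TPM of them. Other epicardial and mesothelial genes, also described below, summed to 3384 TPM in low and 4153 TPM in high purity H9. The other 4 had 3277 to 4641 TPM of these. The cardiomyocyte markers summed there to 60.6 TPM in low and 570.8 TPM in high purity H9, and to 274.6 to 1048 TPM in the other 4. Endoderm markers summed to 2.63 TPM in low purity H9, against 515 TPM in low purity IMR90-4 and 346 TPM in low purity WTC11. The part of these cells in the result was not tested.

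Low purity WTC11 at passage 69 was sampled in both experiments and its levels were far apart. On day 6 WT1 was 24.7 to 52.3 TPM in the multi-omic wells and 0.542 TPM in the RNA-only library, TBX18 31.9 to 54.0 and 0.944 TPM, BNC1 112 to 184 and 3.92 TPM, and BNC2 35.5 to 69.1 and 0.483 TPM. The kits differ and the tables were normalised separately, so these values are set side by side without a test. On day 0 the same pairs were 0.539 to 1.20 and 0.879 TPM for BNC1 and 6.52 to 7.04 and 1.64 TPM for BNC2. Whether both libraries are of 1 differentiation is not given in the sources used here.

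The other 5 genes had other patterns, though LRRN4 and SEMA3D were also highest in low purity H9 on day 7. LRRN4 went up in all 6 differentiations, from 0.151 to 0.244 TPM on day 0 to 6.19 to 25.8 TPM at the last stage. The next highest value of LRRN4 was 17.0 TPM in high purity H9. ITLN1 was highest in low purity IMR90-4, at 4.37 TPM on day 7, and was 0.0507 TPM in low purity H9. UPK1B peaked at 3.37 and 3.15 TPM in low and high purity IMR90-4 on day 3 and stayed at 0.77 TPM or less in H9 and WTC11. MSLN was at most 0.687 TPM and SEMA3D 0.201 to 2.88 TPM in all 24 libraries. In low purity H9 SEMA3D already had 2.57 TPM on day 0.

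Over the 6 differentiations, 7 of the 10 genes rose from day 0 to the last stage in the edgeR quasi-likelihood test, where 23.4% of 23848 genes rose, and BNC2 fell, where 16.2% fell. The rises were 8.07 ± 1.36 for TBX18, 7.09 ± 1.59 for WT1, 7.08 ± 0.73 for ITLN1, 6.27 ± 0.64 for LRRN4, 4.14 ± 0.97 for TCF21, 3.79 ± 1.07 for BNC1 and 2.13 ± 0.59 for MSLN on the log2 scale (adjusted p from 1.6e-07 to 0.0047), and BNC2 fell by 2.97 ± 0.62 (adjusted p = 4.4e-04). On day 0 WT1 had 0 to 2 reads a library, TBX18 0 to 4 and ITLN1 0 to 1, so the sizes of their rises are imprecise. TBX18 ended at 7 reads in high and 4 reads in low purity IMR90-4, and ITLN1 at 1 read in low purity H9. Single lines weighed on several of the changes. The rise of WT1 was 4.45 without H9 (adjusted p = 0.0015) and 8.48 and 8.47 without IMR90-4 and without WTC11. That of BNC1 was 7.15 without WTC11 (adjusted p = 1.0e-04) and 2.92 without H9, and without IMR90-4 it no longer passed (3.27, adjusted p = 0.053). BNC2 fell by 1.82 without IMR90-4 (adjusted p = 0.036), and with no block for the differentiation its difference was -0.11 and not called (adjusted p = 0.95). By limma on log2(TPM + 1) WT1 (1.14, adjusted p = 0.096), BNC2 (-0.83, adjusted p = 0.026) and MSLN (0.30, adjusted p = 0.0014) were not called, the last 2 for their size. At the second stage only LRRN4 and UPK1B rose (2.61 ± 0.60 and 1.52 ± 0.61, adjusted p = 0.0016 and 0.046) and BNC2 and SEMA3D fell, where 14.8% of all genes rose and 10.8% fell. The rise of UPK1B lay in IMR90-4, from 0.231 to 3.15 TPM in high and from 0.408 to 3.37 TPM in low purity. In H9 and WTC11 it was 0.204 to 0.508 TPM on day 0 and 0.136 to 0.406 TPM at the second stage.

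High and low purity differentiations of the 3 lines were not told apart by any of the 10 genes at any stage in edgeR's test, in which 0% of all 23848 genes were called. At the last stage 2876 genes had an unadjusted p under 0.05, and neither DESeq2 nor limma on TPM called any of the 10. High minus low was -3.04 ± 2.09 for WT1, -2.60 ± 0.99 for TBX18, -2.06 ± 1.36 for BNC2 and -0.82 ± 0.95 for BNC1 on the log2 scale (adjusted p = 0.59, 0.35, 0.58 and 0.77). Without H9 these were -0.96, -1.35, -0.54 and 0.22. With 1 differentiation a line and class the errors are large, and the test does not show that the classes are alike.

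**Figure D4:**
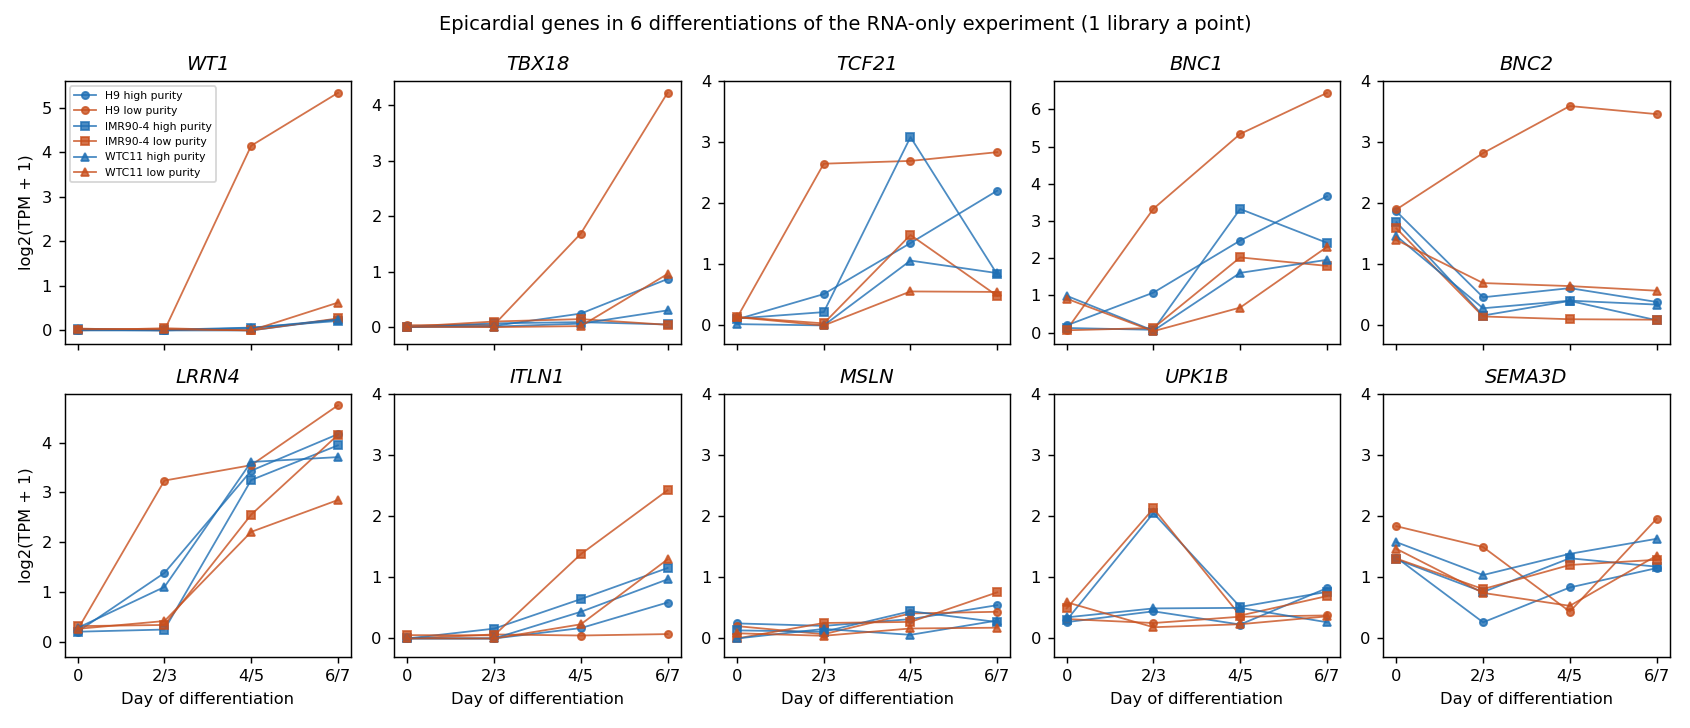
TPM as deposited, on a log2(TPM + 1) axis, at the 4 stages of the RNA-only experiment for the 10 genes, with 1 library a point, colour for purity class and marker shape for the line. The orange circles of low purity H9 stand above all others for WT1, TBX18, BNC1 and BNC2, at 39.5, 17.7, 85.8 and 9.99 TPM on day 7, while LRRN4 rises in every differentiation.

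Other genes of the epicardium, of its origin and of what it gives rise to were taken from lists that were also chosen with earlier results known. Of 14 other epicardial and mesothelial genes tested, 8 rose and 1 fell from day 0 to day 16 in low purity wells, and 3 rose and 3 fell in high purity wells. Over all genes 19.5% rose and 14.6% fell in low and 19.4% rose and 16% fell in high purity wells, so the high purity count of this list is near that of all genes. RSPO1, a secreted WNT enhancer, rose by 5.57 ± 0.17 to 49.6 ± 12.5 TPM in low purity wells and was 1.02 ± 0.17 TPM in high purity wells of day 16 (n = 3 each). Complement C3 rose by 5.03 ± 0.22 and the calcium binding protein CALB2 by 3.11 ± 0.18. MUC16, a mesothelial mucin, was at 0.06 TPM in both classes. All 10 proepicardial and cardiac mesoderm factors rose in low purity wells and 8 in high purity wells, beside 19.5% and 19.4% of all genes, led by TBX20 (7.29 ± 0.16 and 8.85 ± 0.16), HAND1 (7.11 ± 0.12 and 6.24 ± 0.12) and GATA6 (6.87 ± 0.06 and 6.83 ± 0.06).

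Genes of retinoic acid and of mesenchyme also rose in low purity wells. All 7 retinoic acid genes did so, where 19.5% of all genes rose, and 4 rose in high purity wells, where 19.4% did. ALDH1A2, the enzyme that makes retinoic acid in the epicardium, rose by 4.99 ± 0.20 to 33.6 ± 7.4 TPM in low purity wells, and its 0.93 ± 0.20 in high purity wells, ending at 0.93 ± 0.41 TPM, was under the threshold. ALDH1A1, a related enzyme, rose by 3.84 ± 0.33 and 2.80 ± 0.33, and the retinoic acid receptor RARB by 2.79 ± 0.14 and 2.98 ± 0.14. Of 16 genes of epicardium-derived cells and the mesenchymal transition, 14 rose and 1 fell in low purity wells and 11 rose and 1 fell in high purity wells, beside the same shares of all genes for a rise and 14.6% and 16% for a fall. The fibrillar collagen COL3A1 reached 5902 ± 1206 TPM in low and 124 ± 10 TPM in high purity wells, the proteoglycan LUM 727 ± 84 and 20.9 ± 1.5 TPM, and the matrix protein POSTN 239 ± 20 and 19.3 ± 0.5 TPM. All 3 smooth muscle markers tested rose in both classes, with ACTA2 at 644 ± 68 TPM in low and 74.3 ± 4.1 TPM in high purity wells. The list medians in low purity wells were 1.71 for the other epicardial genes, 6.48 for the early factors, 2.43 for retinoic acid and 5.05 for mesenchyme, and 0.09, 6.44, 1.20 and 3.41 in high purity wells, beside 0.09 and 0.05 over all genes.

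**Figure D5:**
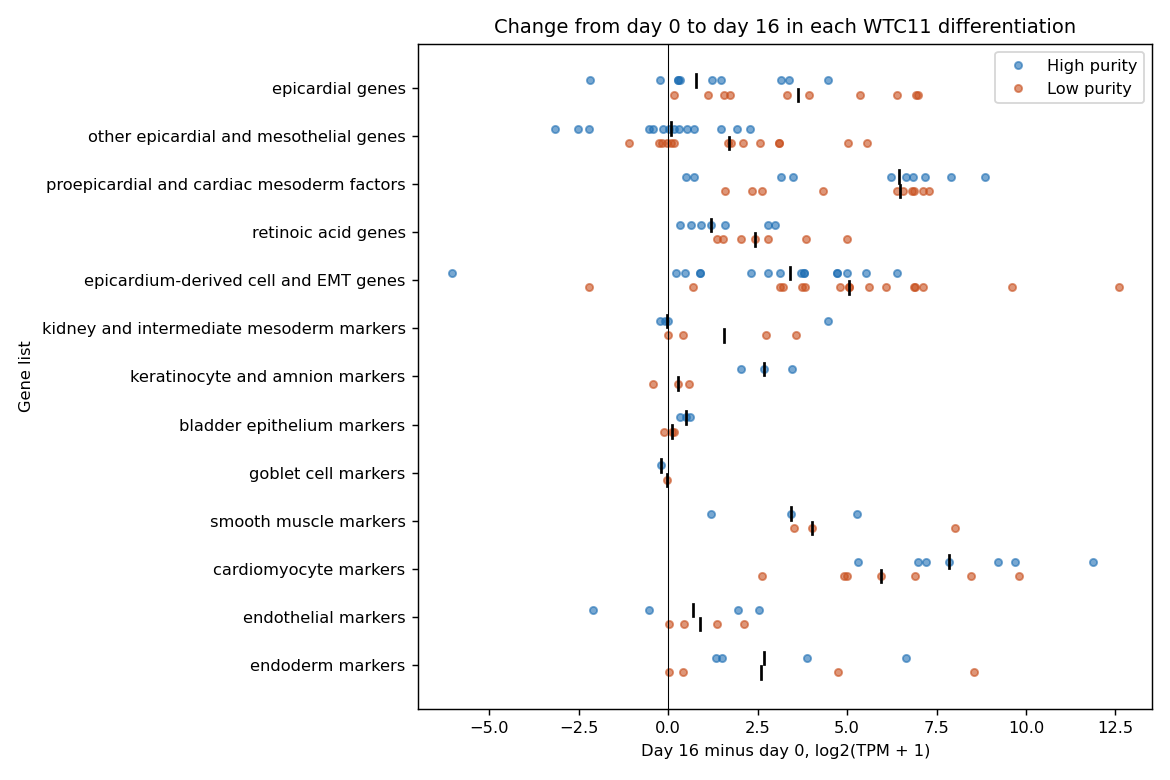
Change from day 0 to day 16 on the log2(TPM + 1) scale for each tested gene of 13 lists in the multi-omic experiment, with blue points for high and orange points for low purity wells and a black bar at each median. The medians of the epicardial genes are 3.63 in low and 0.79 in high purity wells, and those of the cardiomyocyte markers 5.95 and 7.84.

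Markers of some other cell types rose from day 0 to day 16 in low purity wells and those of others did not. Of 4 markers each, 2 of kidney, 2 of endothelium and 2 of endoderm rose (limma, beside 19.5% of all genes), and the 3 keratinocyte and amnion, 3 bladder and 1 goblet cell markers tested did not pass. Cardiomyocyte markers rose in both classes (7 of 7 each), and their sum on day 16 was 2167 to 3613 TPM in low and 9238 to 11032 TPM in high purity wells, so RNA of the low purity wells held transcripts of both groups. WT1 also marks the kidney: of 4 kidney and intermediate mesoderm markers tested, OSR1 and NPHS1 rose in low purity wells, NPHS1 to 7.04 ± 2.53 TPM against 0.02 ± 0.04 TPM in high purity wells, SIX2 was 0.59 ± 0.28 TPM and LHX1 was at 0 in all wells of day 16. The list summed to 15.01 to 22.6 TPM in low and 17.2 to 20.3 TPM in high purity wells. Keratinocyte and amnion markers summed to 0.72 to 4.54 TPM in low and 20.6 to 24.5 TPM in high purity wells of day 16, bladder epithelium markers to 0.23 to 1.19 and 1.29 to 3.08 TPM, and goblet cell markers to 0.24 to 0.84 and 1.17 to 1.61 TPM. Endothelial markers summed to 156 to 235 TPM in low and 34.7 to 39.9 TPM in high purity wells, with TEK and KDR called higher from day 0 in low purity wells and the defining marker CDH5 at 0.40 ± 0.03 TPM in low and 4.76 ± 0.96 TPM in high purity wells, and endoderm markers to 423 to 1133 and 62.4 to 413 TPM, with AFP at 781 ± 363 and 227 ± 169 TPM. The part of these cells in the levels of the 10 genes was not tested.

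Genes on the opposite strand went along with 4 of the factors, and it is not given in the sources used here whether strand was used in the counting, so reads of a gene and of its partner cannot be told apart. Annotated genes also lie opposite BNC1 (AC103876.1) and SEMA3D (HSPA8P16), with others opposite BNC2, and their levels were not examined. WT1-AS was 7.14 ± 0.73 TPM in low purity wells on day 8 (n = 4) and 6.11 ± 1.53 on day 16 (n = 3), with 0 reads in the 3 high purity wells of day 16. BNC2-AS1 was 38.1 ± 6.2 TPM in low purity wells on day 8 and at 0 reads in high purity wells. TBX18-AS1 was 5.91 ± 0.59 TPM and TARID, opposite TCF21, 1.65 ± 0.52 TPM in low purity wells of day 16, and both were at most 0.73 TPM in high purity wells. In the RNA-only experiment WT1-AS was 21.4 TPM in low purity H9 on day 7 and at most 0.288 TPM in the other 5 differentiations.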

How the data were processed

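RNA was measured in 56 poly(A) libraries (multi-omic) and 24 total RNA libraries (RNA-only). Per the submitters' processing notes reads were aligned with STAR 2.5.3a to hg38 and counted with featureCounts 2.0.3, and the authors deposited a count table and a TPM table for each experiment, each TPM scaled within its own table. Whether strand was used in the counting is not given in the sources used here. The deposited multi-omic counts were not used by their column names: 0 of 56 TPM columns held the reads of the count column of the same name, 50 matched another column and 6 matched none, whereas 24 of 24 RNA-only columns matched. The nearest other library was of the same group for 52 of 55 TPM columns and for 28 of 55 count columns, so the TPM names were taken. Which table carries the right names is not settled by this, and every multi-omic group value rests on the choice. Multi-omic reads were recovered from TPM with gene lengths solved from the RNA-only tables, and 100% of values came out whole within 0.05 reads for 37221 genes. The quasi-likelihood test of edgeR on these reads, an alternative, called 6501 rises and 4517 falls among 25583 genes from day 0 to day 16 in low purity wells, where limma on TPM called 5012 and 3745. From the RNA-only counts, 30 broken lines (6 genes) were left out.

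Multi-omic TPM were scaled by TMM and tested as log2(TPM + 1) with limma 3.58.1, trend on, over 16 group means (40 residual degrees of freedom) and 25664 genes with at least 1 TPM in 3 libraries. A fold change on this scale understates the change of low genes. RNA-only counts were tested with the quasi-likelihood test of edgeR 4.0.16 in R 4.3.3 over 23848 genes, with line and stage means (8 residual degrees of freedom) or with each differentiation as a block, paired by its line and class (15). The error beside each edgeR change is the size of the change divided by the square root of its F statistic. A gene counted as called when its p, adjusted over all genes tested by the method of Benjamini and Hochberg, was under 0.05 and its log2 change was 1 or more in size. The scripts were tested on simulated data. Multi-omic well numbers did not pair wells (correlations from -0.03 to 0.07). P-values within the multi-omic experiment measure the spread between wells, which may be technical. Poisson intervals and floors cover counting error only.

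The 10 genes and the other lists were chosen with earlier results of these data known. From each other list up to 3 genes with the largest change from day 0 to day 16 in low purity wells were named, and MUC16 and LHX1 were named after their values were seen. MUC2 was not analysed here. Alternatives were other scalings, filters, pseudocounts and tools (DESeq2 1.42.0 among them), leaving out each library or line, and the block. The single high purity well of day 10 entered the fit but no contrast.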

Additional observations from a re-analysis of the deposited data

Results flagged for a closer look

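Of 64 gene and group combinations with 4 wells examined, 3 had a well far from the others, and chance alone flags about 1 in 20. BNC1 in high purity wells of day 4 had a low value of 3.62 TPM in well 2, where the others had 5.15 to 5.43. LRRN4 in high purity wells of day 6 had a high value of 62.6 TPM in well 1, where the others had 47.9 to 49.5. TBX18 in low purity wells of day 13 had a high value of 187 TPM in well 1, where the others had 146 to 151.

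In 3 cases every low purity well of the later day lay above, and every high purity well below, the wells of the earlier day. The difference between these moves was not tested. Each of the genes was searched over several pairs of days, with a mean of at least 1 TPM in some group. How many of all genes move so was not counted, so nothing is read from this number. TCF21 went from a mean of 3.80 to 7.61 TPM between days 4 and 6 in low purity wells and from 4.83 to 0.82 TPM in high purity wells. BNC2 went from 11.9 to 47.4 TPM and from 1.39 to 0.76 TPM over the same days. From day 0 to day 16 BNC2 went from 6.74 to 25.6 TPM in low and from 6.78 to 0.65 TPM in high purity wells.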

How the results depend on the processing

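The counts of called genes among the 10 were 9 (low purity, day 0 to 16), 6 (high purity, day 0 to 16), 3 and 4 (low and high, day 8 to 16), 8 (RNA-only, first to last stage) and 0 (RNA-only, high minus low). The difference that picked the genes (high minus low, day 16) was at least 1 in size for 7. No p is given for it, and it supports nothing. Without the fold threshold the day 8 to 16 counts were 5 and 7, and limma on RNA-only TPM gave 5 in place of 8. Leaving out 1 library or line gave 8 to 9, 6 to 6, 3 to 3, 4 to 4, 7 to 8 and 0 to 0. With the well number as a replicate block the multi-omic counts were 9, 6, 3 and 4, and with no replicate block the RNA-only counts were 7 and 0. In these comparisons signs turned only for changes that were not called. With no scaling these were WT1 (-0.029) and SEMA3D (-0.16) in low purity wells between days 8 and 16 and UPK1B (-0.093) between classes on day 16. Leaving out 1 well each gave SEMA3D -0.53 to 0.037 (high, day 0 to 16) and -0.048 to 0.15 (low, day 8 to 16), TCF21 -0.25 to 2.75e-04 and ITLN1 -0.80 to 0.27 (high, day 8 to 16), and UPK1B -0.068 to 0.18 (between classes, day 16). In the RNA-only class difference at the last stage TCF21 was -0.50 and LRRN4 -0.20 with no replicate block. Leaving out 1 line each gave there TCF21 -0.050 to 0.94, BNC1 -1.71 to 0.22, LRRN4 -0.47 to 0.42, ITLN1 -1.20 to 0.64, MSLN -0.73 to 0.52, UPK1B -0.059 to 0.68 and SEMA3D -0.78 to 0.17. SEMA3D was -0.042 by limma on TPM from the first to the last stage. With no scaling the median of all genes in high minus low moved to -0.12 on day 16 and -0.18 on day 8. On day 16, limma then called 954 genes higher and 2437 lower by adjusted p and size together, in place of 1479 and 1965. The cause of these shifts was not tested. MSLN, UPK1B and ITLN1 rested on few reads, which limits their precision.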
